A study of Mus musculus with 4 samples.

Results

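An induced pluripotent stem (iPS) cell clone was compared with mouse embryonic fibroblasts (MEFs) through CGR8.8, a line of embryonic stem (ES) cells that was present in green (Cy3) on all 4 arrays of the series. MEFs, collected after several passages, were in red (Cy5) on 2 arrays, and the iPS clone, collected 30 days after transduction, was in red on the other 2. Leukemia inhibitory factor (LIF), at 1000 IU/ml, was in the medium of the ES and iPS cells. The transduced factors, the strain and the sex of the cells are not given in the labels, and the iPS group is 1 clone. The labels call the arrays of a group biological replicates without saying whether cultures were separate, so p-values measure only the spread between these arrays. For each probe the MEF log2 ratio to ES was subtracted from the iPS log2 ratio to ES, which is meant to cancel the shared ES channel and the dye orientation. The ES signal of a gene was not the same on all arrays, and such a difference stays in the result. The red signal exceeded background clearly, on both arrays of MEFs or of iPS cells, for 26631 of the 41174 gene probes. The test used the 24310 of them with a reading on each of the 4 arrays, which covered 16851 genes, each represented by its brightest tested probe.

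Fibroblasts make and organise the collagen-rich matrix of connective tissue and hold tension on it through actin stress fibres. Pluripotent cells instead form tight epithelial-like colonies, cycle fast with a short G1 phase, and keep a self-sustaining circuit of transcription factors around Oct4 (Pou5f1), Sox2 and Nanog. Reprogramming a fibroblast with transduced factors is known to shut the mesenchymal programme and to switch the endogenous pluripotency genes on.

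The 2 cell types differed widely, with germ cell, pluripotency and replication genes higher in the clone and matrix, contractile and mesenchymal genes higher in the fibroblasts. A probe or gene was called at a limma adjusted p (Benjamini-Hochberg, over all tested) under 0.05 and a difference of at least 2-fold. By that rule 3828 probes were higher in iPS cells (15.7% of those tested) and 4406 were lower (18.1%). Counted by gene, 2929 were higher (17.4%) and 3284 lower (19.5%), and these shares are the background for every list below. At 4-fold or more there were 1056 higher and 1426 lower genes, and at 16-fold or more 172 and 312. At any size, the adjusted p alone was passed by 13854 genes. The median absolute replicate difference was 0.0898 (log2) in MEFs and 0.0674 in iPS cells. The median difference over all tested genes was 0.02. Fitting the background correction over all spots lowered the counts to 993 higher and 1141 lower genes; without MEF replicate 1 the same setting gave 2940 and 3300. Under that setting the lists below lost calls too. There 5 of 39 pluripotency genes were called higher in place of 35, and 20 of the germ cell genes in place of 33. Replication genes called higher fell from 36 to 13, mitosis genes from 26 to 10 and repair genes from 23 to 3. Of the genes called lower, collagens fell from 19 to 6, mesenchymal factors from 33 to 6 and Hox genes from 21 to 2. The contractile list kept most, with 23 lower in place of 30. MEF replicate 1 alone held spots with a local background above 500 (14 spots, all marked as outliers). Of the genes called higher, 437 were not above background in MEFs, and of those called lower, 474 were not above background in iPS cells.

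Against the ES channel, most called genes were at ES level in 1 of the cell types. Here a gene is above or below ES where its ratio to ES passed the same rule, and near ES otherwise. Of the genes higher in iPS cells, 1057 (36.1%) were below ES in MEFs and near it in iPS cells, and 814 (27.8%) were near ES in MEFs and above it in iPS cells. A further 310 were below ES in MEFs and above it in iPS cells, with a median difference of 3.51. Of the genes lower in iPS cells, 1386 (42.2%) were above ES in MEFs and near it in iPS cells, 742 (22.6%) were near ES in MEFs and below it in iPS cells, and 459 were above ES in MEFs and below it in iPS cells. The ratios to ES themselves carry the dye orientation, which was not swapped on these arrays.

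**Figure D1:**
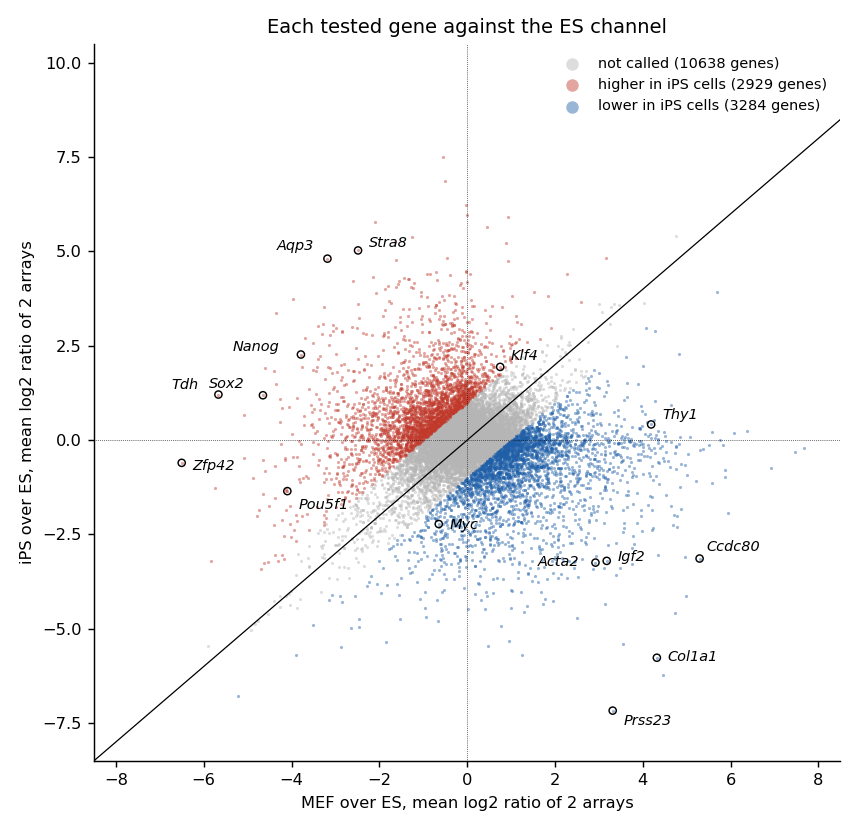
Each point is 1 of the 16851 tested genes, with its mean log2 ratio to ES over 2 MEF arrays (x axis) and over 2 iPS arrays (y axis); red and blue points are called, and the diagonal marks equal ratios. Nanog, Tdh and Stra8 lie far above the diagonal, Col1a1 and Prss23 far below it, and Pou5f1 lies below 0 on both axes.

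The transcription factors that sustain pluripotency were among the largest gains. Of 39 tested pluripotency regulators, 35 were called higher, 1 lower (Myc) and 3 were not called (Etv4, Sall1 and Spp1). The median difference was 3.69 (3.66 over the 36 genes measured in both cell types). Nanog, a homeobox factor of the core circuit, had log2 ratios to ES of -3.82 and -3.76 on the MEF arrays and 2.30 and 2.24 on the iPS arrays. That is a 66.5-fold rise (difference 6.06 ± 0.07 SE, adjusted p = 4e-09). Sox2, the partner of Oct4 on DNA, read -4.71 and -4.59 on the MEF arrays and 1.19 and 1.18 on the iPS arrays, a difference of 5.84 ± 0.07. Esrrb, an orphan nuclear receptor of the naive state, differed by 5.97 ± 0.07, but its other tested probe by 1.23. Both iPS arrays lay above both MEF arrays for each of these genes. Such separation adds little to a call, since replicates rarely differed by as much as 2-fold. They did so at 14 of the 24310 tested probes in MEFs and at 1 in iPS cells. Fbxo15, a direct Oct4 target long used as a reporter of reprogramming, rose 111-fold, and the chromatin factor Dppa4 74.7-fold.

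Zfp42 (Rex1), a zinc finger protein used as a marker of undifferentiated cells, read -6.63 and -6.38 on the MEF arrays and -0.59 and -0.62 on the iPS arrays and rose 59.7-fold, to near ES. Pou5f1 read -4.23 and -3.96 on the MEF arrays and -1.26 and -1.45 on the iPS arrays. Its rise of 6.7-fold (difference 2.74 ± 0.11, adjusted p = 3.7e-07) thus left the clone below the ES line on both arrays, unlike Nanog, Sox2 and Esrrb, which were above it. Lin28a, an RNA-binding protein that blocks let-7 maturation, was also higher than in MEFs (difference 2.78) and read -4.84 and -4.72 on the MEF arrays and -1.99 and -2.01 on the iPS arrays. Where no array of a group read a gene well above background, only a bound is given, as at least so many fold against the lowest reading well above background, and no fold where that bound exceeds the fitted fold. Nr0b1 (Dax1), an orphan receptor tied to the same circuit, was not well above background on either MEF array and at least 199-fold higher in iPS cells (adjusted p = 3.6e-09). Lin28a was added after its values had been seen.

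The factors most often used for reprogramming did not move alike. Klf4, which fibroblasts also express, read 0.74 and 0.76 on the MEF arrays and 1.92 and 1.97 on the iPS arrays, so MEFs were near ES and the rise was 2.28-fold (difference 1.19 ± 0.07). Myc read -0.64 and -0.65 on the MEF arrays and -2.18 and -2.27 on the iPS arrays and fell by 1.58 on the log2 scale (SE 0.07, adjusted p = 6e-07); its other 2 probes gave -1.51 and -0.58. Its relatives, picked after the values had been seen, went the other way: Mycn differed by 3.69 ± 0.09 and Mycl by 1.39 ± 0.07. The probes cannot tell endogenous from transduced transcripts where they lie in a shared part of the message, and their place in the transcript was not analysed here.

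Germ line genes and genes of the earliest embryo made up many of the steepest gains. Of 39 tested meiosis and germ cell genes 33 were called higher, none lower and 6 were not called, with a median difference of 3.23 (3.70 over the 15 measured in both cell types). In 24 of the 39 at least 1 cell type lacked a reading above background, and a gene that entered only through iPS cells had to be higher there. Tex19.1, which restrains retrotransposons in germ cells and placenta, read -4.01 and -3.91 on the MEF arrays and 3.62 and 3.85 on the iPS arrays, a 207-fold rise (difference 7.70 ± 0.09, adjusted p = 4.4e-09). Stra8, the retinoic acid-induced gate to meiosis, read -2.53 and -2.44 on the MEF arrays and 4.91 and 5.14 on the iPS arrays, a 183-fold rise (difference 7.51 ± 0.09). Both iPS arrays were thus far above the ES line as well as above the fibroblasts. Dazl, which binds messenger RNAs in germ cells, was not well above background in MEFs and reached 6.88 over ES in iPS cells (adjusted p = 4e-09), with no fold given because MEFs supply only a bound.

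Further gains in this class were Gtsf1 (6.65), a piRNA pathway factor, Dppa3 (6.39), which shields DNA methylation in the zygote, and Tdrd12 (4.97), another piRNA factor. Dppa3 read close to background in MEFs, with a log2 red signal of 6.23 and 6.27 against a lowest clear reading of 6.10. Khdc3, of the oocyte's subcortical maternal complex, was not above background in MEFs and stood at 5.78 over ES in iPS cells, and Ooep of the same complex rose by 5.90 ± 0.08. Of 17 tested oocyte and maternal-effect genes 9 were called higher and none lower. Of 10 tested 2-cell stage genes 7 were higher and Tdpoz1 lower. Most of these also entered through 1 cell type alone: of the 8 oocyte genes measured in both, 3 were higher (median difference 0.65), and of the 3 such 2-cell genes 1 was. Zscan4c, which marks a brief 2-cell-like state of ES cell cultures, was not above background in MEFs and at least 111-fold higher in iPS cells, at 4.22 over ES. Tcstv3 of the same stage rose 12.1-fold. The Zscan4, Usp17l and Tcstv genes belong to families of near-identical copies, so which copy a probe read is uncertain.

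Several germ cell genes carried the E-box CACGTG (a palindrome, so the same on both strands) in their RefSeq promoter, taken here as 250 bases before to 50 after an annotated start on GRCm38.p6. A promoter was matched for 11293 of the 16851 tested genes. Where a gene had several annotated starts, a motif was counted if any of its promoters held it, so the length searched can differ between genes. The E-box was present in 14 of 36 germ cell genes with a promoter (38.9%), against 11.3% of tested genes and 8.09% of all promoters in the table. Of the 14, 13 were called higher, as were 33 of the 39 tested genes of the list with or without it. A match is only a run of letters. The promoters of Sycp3, a lateral element of the synaptonemal complex, and of Hormad1, which surveys unpaired chromosome axes, are shown over the 120 bases before the start because each holds it at 2 places. The sequences run from chr10:88459467-88459586 and chr3:95559557-95559676, both on the plus strand, with the E-box in capitals.
Sycp3: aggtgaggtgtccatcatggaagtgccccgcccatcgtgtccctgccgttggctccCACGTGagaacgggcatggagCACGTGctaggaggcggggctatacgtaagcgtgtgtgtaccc
Hormad1: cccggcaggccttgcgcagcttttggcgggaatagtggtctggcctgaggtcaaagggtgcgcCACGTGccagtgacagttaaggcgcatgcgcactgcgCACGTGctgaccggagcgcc
Sycp3 was not above background in MEFs and stood at 1.11 over ES in iPS cells (adjusted p = 6.5e-08). Hormad1 differed by 4.97 ± 0.11 and by 3.41 on its other probe. The E2F element was in 27.8% of the same 36 promoters.

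Enzymes that write and read DNA methylation and histone marks were higher in 25 of 44 cases, lower in 3 (among them Hdac7 and Suv39h1) and not called in 16. Dnmt3l, the cofactor of de novo methylation, read -4.78 and -4.44 on the MEF arrays and 1.92 and 1.90 on the iPS arrays, a 91.7-fold rise (difference 6.52 ± 0.11). The de novo methyltransferase Dnmt3b read -4.28 and -4.17 on the MEF arrays and 0.84 and 0.88 on the iPS arrays and rose 34-fold. Jarid2, a partner of Polycomb complex PRC2, rose 19.7-fold. Hdac7 read 0.89 and 1.06 on the MEF arrays and -1.58 and -1.65 on the iPS arrays, a 6.02-fold fall.

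The machinery of DNA synthesis and cell division was higher in iPS cells in nearly every gene tested. Of 39 tested genes of replication licensing and forks 36 were called higher and none lower, with Gins4, Rrm1 and Rrm2 not called. All 39 were measured in both cell types, and the median difference was 2.24. As list medians, MEFs stood at -1.87 to ES and iPS cells at 0.32. Cdt1, which loads the MCM helicase, rose 9.18-fold from -3.05 and -3.06 on the MEF arrays and 0.08 and 0.20 on the iPS arrays. Gins1, of the helicase's GINS cofactor, rose 8.91-fold and Mcm10, which activates the helicase, 8.54-fold. Of 29 mitosis genes 26 were higher and 3 were not called (Bub3, Cdk1 and Kif11), with a median of 1.91. The spindle checkpoint kinases Bub1 (6.95-fold) and Bub1b (5.95-fold) and the kinase Aurkb (5.51-fold) led that list. Cdk1, which drives entry into mitosis, differed by 0.04 ± 0.09.

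Repair genes were higher too: 23 of 28 were higher and none lower, with a median of 2.58. Brca2, which acts in the repair of double-strand breaks by homologous recombination, read -2.74 and -2.88 on the MEF arrays and 1.48 and 1.46 on the iPS arrays, a 19.4-fold rise; its other probe gave 1.33. Ung, the uracil glycosylase, rose 19.3-fold. Of 15 telomere genes 8 were higher, led by the shelterin protein Terf1 (10.7-fold, SE of the difference 0.16). Tert, the catalytic subunit of telomerase, read -0.09 and -0.22 on the MEF arrays and 0.04 and 0.21 on the iPS arrays, a difference of 0.28 ± 0.09 (adjusted p = 0.019) that lay under 2-fold and was not called.

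Motifs of cell cycle genes were frequent in these promoters. The E2F element TTCCCGC, searched on both strands, was in 13 of 32 replication promoters (40.6%) and 10 of 21 repair promoters (47.6%), against 9.16% of tested genes and 5.29% of all promoters. The CCAAT box, whose letters are CCAAT on either strand, was in 20 of 24 mitosis promoters (83.3%) against 42.6% and 41.1%. It was also in 6 of 7 promoters of 2-cell stage genes (85.7%). Among mesenchymal transcription factors, 16 of 23 promoters held it (69.6%), against 65.6% in the replication list. Of those 16 genes, 12 were called lower and 4 were not called. A high CCAAT share was thus not particular to cell cycle genes or to genes called higher. No mitosis promoter held the E2F element in this window. The promoters of Rpa2, a subunit of the single-strand binding protein, and of the mitotic cyclin Ccnb2 are shown with those letters in capitals, again over 120 bases before the start. They lie at chr4:132768240-132768359 on the plus strand and chr9:70421555-70421674 on the minus strand (GRCm38.p6).
Rpa2: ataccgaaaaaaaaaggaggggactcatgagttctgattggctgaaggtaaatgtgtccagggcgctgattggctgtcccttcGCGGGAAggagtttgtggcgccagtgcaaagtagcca
Ccnb2: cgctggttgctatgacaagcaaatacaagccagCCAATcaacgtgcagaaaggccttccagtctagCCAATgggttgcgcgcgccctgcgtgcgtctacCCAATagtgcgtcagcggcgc
Rpa2 rose by 2.95 ± 0.07 and Ccnb2, with the CCAAT box at 3 places, by 2.09 ± 0.07.

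Genes that control the G1 phase were divided. Among 27 tested CDK inhibitors, G1 cyclins and p53 pathway genes 9 were lower, 4 higher (Ccne1, Cdk2, Sesn1 and Trp53) and 14 not called. Cyclin D2 (Ccnd2) read 2.99 and 2.74 on the MEF arrays and -3.35 and -3.48 on the iPS arrays, a 77.7-fold fall (difference -6.28 ± 0.10). The INK4 inhibitor Cdkn2b read 1.41 and 1.37 on the MEF arrays and -3.55 and -3.50 on the iPS arrays and fell 30.1-fold. Cdkn2a, whose locus encodes p16 and p19Arf and which rises in passaged fibroblasts, read 1.93 and 2.81 on the MEF arrays and 0.15 and 0.00 on the iPS arrays. Its 2 MEF arrays differed from each other more than those of the other named genes, and the fall of 2.29 on the log2 scale had an SE of 0.25 (adjusted p = 8.7e-05). Without MEF replicate 1 it was -2.73. Trp53 rose 2.82-fold, while its other probe gave -0.34.

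**Figure D2:**
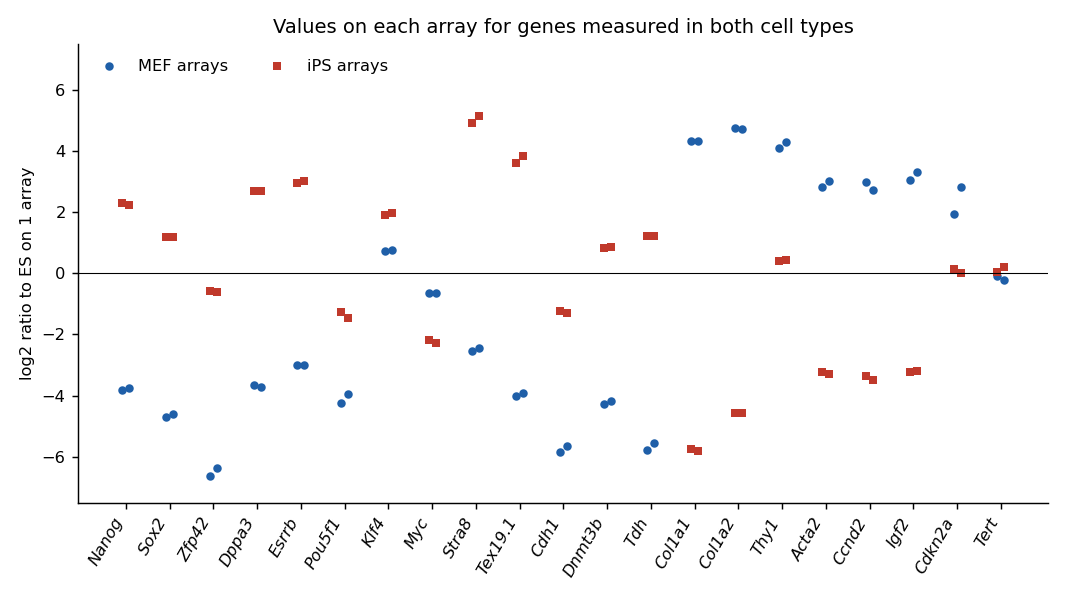
Points are the log2 ratios to ES on single arrays (y axis) for 21 genes measured in both cell types, with 2 MEF arrays as circles and 2 iPS arrays as squares. The groups are apart for each gene shown; Tert, Klf4 and Myc show the smallest gaps, and Cdkn2a the widest spread between MEF arrays.

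Genes of the extracellular matrix were lower in the clone almost throughout. Of 21 tested collagen chains 19 were lower, 1 higher (Col18a1, of basement membranes) and Col8a2 was not called, with a median difference of -4.31 (-4.77 over the 14 measured in both). Col1a1, a chain of the main fibrillar collagen, read 4.32 and 4.32 on the MEF arrays and -5.73 and -5.80 on the iPS arrays, a 1088-fold fall (difference -10.09 ± 0.07, adjusted p = 2e-09). Its other probes gave -6.47 and -3.85, so the size depends on the probe. Col1a2, its partner chain, read 4.75 and 4.71 on the MEF arrays and -4.57 and -4.58 on the iPS arrays on its brightest probe, a 633-fold fall, but -0.62 on its other probe. Col8a1 fell 556-fold and Col5a2 differed by -6.72 ± 0.07. Col3a1 was not above background in iPS cells and stood at 4.97 over ES in MEFs.

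Other matrix genes went the same way. Of 38 matrix glycoproteins and proteoglycans 36 were lower, Nid2 higher and Lamc1 not called; of 31 crosslinking and remodelling enzymes 29 were lower and none higher. Efemp1 (fibulin-3) read 3.60 and 3.50 on the MEF arrays and -5.37 and -5.45 on the iPS arrays, a 498-fold fall. Thbs1, which activates latent TGF-beta, fell 147-fold, and Fbn1 (fibrillin-1, of elastic microfibrils) 102-fold. Lox, which crosslinks collagen, was not above background in iPS cells and stood at 5.94 over ES in MEFs (adjusted p = 4.5e-09). Postn, Bgn and Lum, matrix proteins of connective tissue, were likewise dim in iPS cells; for Lum the difference was at least 47-fold. The largest fall measured in both cell types was Prss23, a secreted serine protease, at 3.34 and 3.28 on the MEF arrays and -7.18 and -7.16 on the iPS arrays; its other probe gave -2.48.

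Contractile and caveolar genes fell as well. Of 32 tested genes 30 were lower, Csrp2 higher and Actn4 not called, with a median of -3.91. Caveolin 1 (Cav1), which coats caveolae, was at 4.45 over ES in MEFs and not above background in iPS cells, at least 1349-fold lower (adjusted p = 2e-09); its other probe gave -4.20. Myl9, a myosin light chain, read 3.76 and 3.74 on the MEF arrays and -3.31 and -3.29 on the iPS arrays, a 132-fold fall. S100a6 fell 180-fold. Smooth muscle actin (Acta2) read 2.81 and 3.03 on the MEF arrays and -3.21 and -3.28 on the iPS arrays and fell 71.9-fold, with its 4 other probes between -8.86 and -0.76. Vim had a spot marked as an outlier and was not tested. With marked spots kept it differed by -5.18 (limma adjusted p = 0.0111). With no filter on dim probes, and marked spots still left out, the value was -0.21 (limma adjusted p = 0.0545). That value came from a probe that was not clearly above background on both arrays of either cell type, so it says little about Vim.

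The CArG box, bound by serum response factor, was in 17.9% of 28 promoters of this list (5 genes), against 1.70% of tested genes and 1.81% of all promoters, searched on both strands as CC, 6 bases of A or T, and GG. Cnn2 (calponin 2), 1 of the 5, is shown at chr10:79988480-79988599 (plus strand, GRCm38.p6) with the box in capitals.
Cnn2: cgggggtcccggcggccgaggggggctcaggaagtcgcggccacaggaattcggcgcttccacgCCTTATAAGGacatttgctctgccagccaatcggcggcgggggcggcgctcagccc
Cnn2 fell from 1.55 over ES in MEFs to -3.60 in iPS cells, a 35.5-fold difference. Of the other genes with the box, Fhl1, Fhl2, Myl9 and Vcl, each was also called lower, as were 30 of the 32 genes of the list with or without it.

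**Figure D3:**
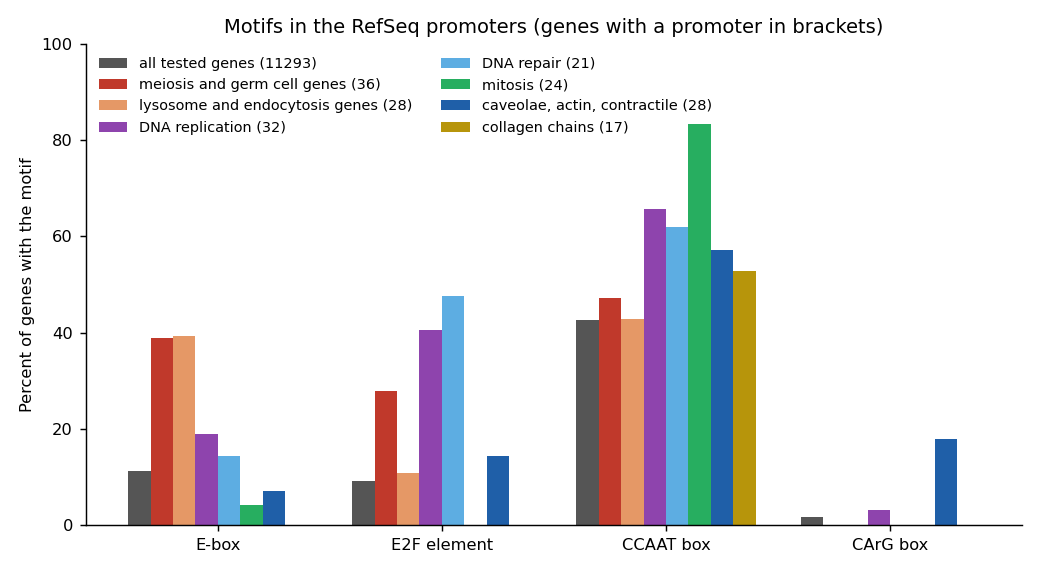
Bars give the percent of genes in each list whose RefSeq promoter holds the motif (y axis), with the grey bar for all 11293 tested genes with a promoter. Among the lists drawn, the E-box share is highest in the lysosome and germ cell lists, the E2F share in repair and replication, the CCAAT share in mitosis and the CArG share in the contractile list.

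Transcription factors of mesenchyme were lower in most cases. Of 40 tested 33 were lower, none higher and 7 not called. Twist2 was not above background in iPS cells and at least 86.2-fold lower. Snai2 (Slug), a repressor of E-cadherin, read 4.44 and 4.51 on the MEF arrays and -0.59 and -0.50 on the iPS arrays, a 32.5-fold fall, and the forkhead factors Foxd1 and Foxc2 fell 33.1-fold and 30.6-fold. Prrx1, a limb mesenchyme homeobox factor, stood at 5.87 over ES in MEFs and was not above background in iPS cells. Twist1 was not tested because of a marked spot, and with marked spots kept it differed by -2.69 (limma adjusted p = 0.115).

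Of 32 tested Hox genes 21 were lower, none higher and 11 not called. Hoxc9 fell 30.2-fold, Hoxb2 16.4-fold and Hoxb7 14.7-fold. Hoxc9 and Hoxb7 ended near ES in iPS cells, at -0.46 and -0.39, whereas Hoxb2 read 0.29 and 0.21 on the MEF arrays and -3.76 and -3.82 on the iPS arrays and so fell well below ES. The Hoxb genes formed the longest run of neighbouring tested genes called the same way. The order used here left out genes known only by the array's name. The run held Hoxb9, Hoxb7, Hoxb6, Hoxb5, Hoxb4, Hoxb3, Hoxb2 and Skap1, 8 genes with differences of -4.73 to -1.01. It lay between 96091841 and 96574983 on chromosome 11 (mm8, the build of the probe positions). Hoxb1 and Hoxb8 were not tested, so the run can pass over untested genes. That run was picked after its values had been seen.

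Epithelial genes changed in part only. Of 34 tested 16 were higher, 2 lower (Dsp and Krt19) and 16 not called. E-cadherin (Cdh1), the adhesion molecule of ES colonies, read -5.84 and -5.66 on the MEF arrays and -1.25 and -1.31 on the iPS arrays, a 22.1-fold rise that left both iPS arrays below ES. Spint1, an inhibitor of membrane proteases, rose 14.5-fold. Krt8 and Krt18, keratins of simple epithelium picked after their values had been seen, were low in both cell types: Krt8 stood at -4.26 in MEFs and -4.13 in iPS cells, and Krt18 at -4.54 and -4.61.

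Secreted signals of fibroblasts were mostly lower in the clone. Of 50 tested 42 were lower and 2 higher (Angptl4 and Mdk). The chemokines Cxcl12 (167-fold) and Ccl2 (123-fold) and the TGF-beta family ligand Inhba (96-fold) fell most among those measured in both. Midkine (Mdk), a heparin-binding growth factor of embryonic cells, rose 7.2-fold. Of 38 growth factor receptors 18 were lower, 6 higher and 14 not called. Pdgfrb read 4.13 and 4.18 on the MEF arrays and -1.54 and -1.43 on the iPS arrays, a 50-fold fall, and Tgfbr2 fell 44-fold. Kit, the stem cell factor receptor of germ cells, was not above background in MEFs and stood at 3.63 over ES in iPS cells. Irs1, an insulin receptor substrate, read 1.26 and 1.23 on the MEF arrays and -5.66 and -5.70 on the iPS arrays and fell 122-fold, its other probe by 2.23 on the log2 scale.

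Thy1, a fibroblast surface glycoprotein, read 4.10 and 4.28 on the MEF arrays and 0.40 and 0.43 on the iPS arrays, a 13.7-fold fall that left iPS cells near ES. B2m, the invariant subunit of MHC class I molecules, read 1.99 and 2.04 on the MEF arrays and -3.25 and -3.27 on the iPS arrays and fell 38.7-fold, its other probes by 5.51 and 1.52 on the log2 scale. Of 29 genes of interferon response and MHC class I, 9 were lower and 2 higher (Oas1a and Psmb9). Psmb9 differed by 1.03, and by -0.49 with normexp fitted over all spots or with marked spots kept. The 18 others were not called. Of 17 tested fibroblast markers, 14 were lower and none higher.

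Lysosome and endocytosis genes, which carry out breakdown of matrix and proteins, were lower in 28 of 33 cases and higher in none. All 33 were measured in both cell types, with a median of -1.85. Ctsh, a cathepsin, fell 20.9-fold, the collagen receptor Mrc2 18.9-fold and the scavenger receptor Lrp1 16-fold. The E-box CACGTG was in 11 of 28 promoters (39.3%) of this list, 10 of them in genes called lower. The germ cell list, with its calls in the opposite direction, had a share of 38.9%, and the list of CDK inhibitors, G1 cyclins and p53 genes, most of them not called, 40.9% (9 of 22). Hox genes followed at 29.4% (5 of 17). Lamp1, the membrane protein that lines lysosomes, holds it at 4 places and is shown at chr8:13159041-13159160 (plus strand, GRCm38.p6).
Lamp1: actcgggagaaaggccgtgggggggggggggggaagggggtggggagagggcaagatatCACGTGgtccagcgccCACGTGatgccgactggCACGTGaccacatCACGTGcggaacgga
Lamp1 fell by 1.94 on the log2 scale (SE 0.07).

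Imprinted genes, expressed from 1 parental copy, were lower in 18 of 38 cases, higher in 3 (Mest, Ppp1r9a and Snrpn) and not called in 17. Igf2, a fetal growth factor, read 3.04 and 3.31 on the MEF arrays and -3.22 and -3.18 on the iPS arrays, a 83.2-fold fall, and its other probe gave -6.68. Grb10 and Dlk1 fell 25-fold and 15-fold. Meg3, a long RNA of the Dlk1-Dio3 cluster, read -0.06 and -0.29 on the MEF arrays and -2.22 and -2.29 on the iPS arrays; MEFs were near ES and iPS cells below it on both arrays. H19, which shares enhancers with Igf2, differed by -1.21 on its brightest probe and by -3.56 on the other. H19 was added after its values had been seen.

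Metabolic genes gave a mixed picture. Tdh, the threonine dehydrogenase on which mouse ES cells depend, read -5.78 and -5.56 on the MEF arrays and 1.21 and 1.21 on the iPS arrays, a 117-fold rise. In its list of threonine, glycine, serine and folate metabolism 13 of 28 genes were higher and 2 lower (Phgdh and Slc6a9); Gldc, of the glycine cleavage system, rose 20.5-fold. Of 25 genes of glycolysis and the pentose phosphate path 7 were higher, led by the lactate transporter Slc16a1 (4.54-fold), and 4 lower, led by Tpi1 (4.17-fold). Of 37 ribosomal protein genes 4 were higher, 1 was lower and 32 were not called; the exception in size was Rpl39l, a copy known from testis, at 31.3-fold. Of 42 splicing and RNA-binding genes 14 were higher and 3 lower. Celf2 fell 14.2-fold. Mbnl1 and Mbnl2, regulators known to favour the splicing patterns of differentiated cells, fell 13.3-fold and 15.2-fold. Housekeeping genes were called in 6 of 15 cases, 2 higher and 4 lower, among them Actb (-1.53 ± 0.10); Gapdh differed by 0.02.

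**Figure D4:**
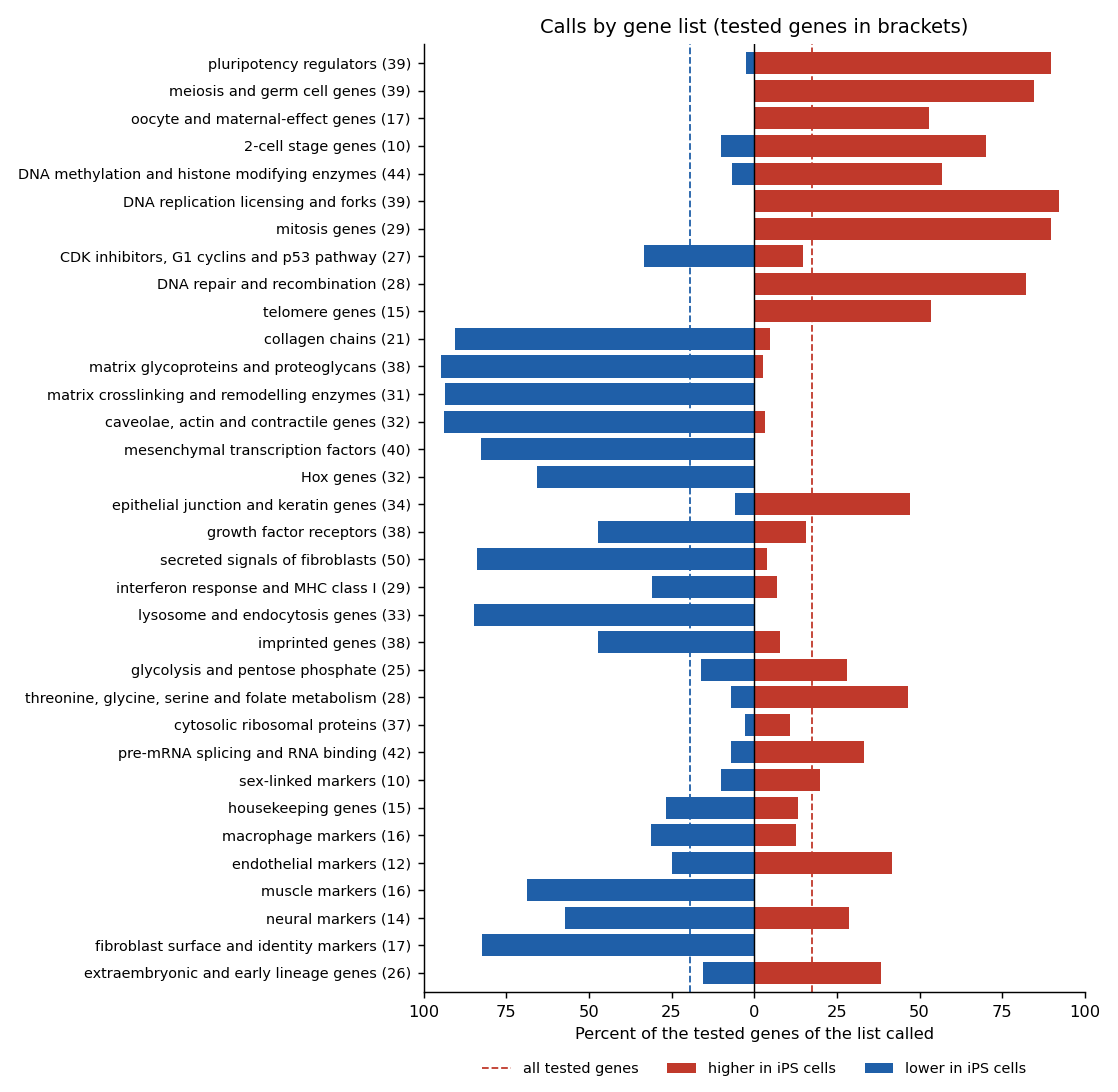
Bars give the percent of each list's tested genes called higher (right, red) or lower (left, blue) in iPS cells, with dashed lines at 17.4% and 19.5% for all tested genes. Replication, pluripotency, mitosis and germ cell lists reach furthest right, and matrix, contractile and collagen lists furthest left.

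Among the largest rises outside the lists was the water and glycerol channel Aqp3, at -3.23 and -3.13 on the MEF arrays and 4.86 and 4.76 on the iPS arrays, a 255-fold rise and the largest among genes measured in both cell types. Apoc1, an apolipoprotein, rose 85.9-fold, the autophagy receptor Calcoco2 82-fold and Inpp5d (SHIP1), a lipid phosphatase first described in blood cells, 63.1-fold. Tfap2c, a factor of germ cells and trophoblast, rose 67.4-fold. On the X chromosome, the reproductive homeobox genes Rhox6 and Esx1 were at least 61.7-fold and 54.1-fold higher, Rhox9 rose 53.2-fold and Rhox13 was dim in MEFs and at 4.32 over ES in iPS cells. In the same order as for the Hox genes, the Rhox genes sat in a run of 6 neighbours all called higher. These were Gm9, Rhox3a, Rhox4e, Rhox6, Rhox9 and Rhox13 (chromosome X 33640830 to 34367745, mm8), picked after their values had been seen. Rhox genes arose by duplication, so probes may read more than 1 copy. The testis cytochrome c Cyct and 1700013H16Rik, dim in MEFs, stood at 5.24 and 7.51 over ES in iPS cells. Among falls, Ccdc80 (345-fold), the endosialin Cd248 (125-fold) and thrombomodulin Thbd (115-fold) completed the largest measured in both. Among genes dim in iPS cells, the small GTPase Rhoj was at least 65-fold lower and the receptor kinase Axl at least 48.6-fold lower, while Fibin, Mgp (matrix Gla protein), Adamts5 and Serpina3g stood at 6.91, 6.08, 3.98 and 4.52 over ES in MEFs.

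Markers of other cell types were read beside these groups, since a fibroblast culture can hold other cells. Of 16 macrophage markers 5 were lower and 2 higher; Lyz2 stood at 4.88 over ES in MEFs and was not above background in iPS cells, while its other probe gave -0.57. Of 12 endothelial markers 3 were lower and 5 higher, among them Robo4 (26.9-fold, SE of the difference 0.23, the MEF arrays at -0.79 and 0.03). Of 16 muscle markers 11 were lower, led by Actc1 (50.9-fold) and Acta1 (43.7-fold). Of 14 neural markers 8 were lower, led by Zic1 (69-fold), and 4 higher. Of 26 extraembryonic and early lineage genes 10 were higher, among them Tfap2c, Rhox9 and Nodal (10.8-fold), and 4 lower. The part of such cells in the results was not tested.

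Of 10 tested sex-linked markers 2 were higher, 1 was lower (Xist) and 7 were not called, among them Uty, Usp9y and Zfy1 of the Y chromosome. Xist, whose RNA coats and silences 1 X chromosome of female cells, stood at 5.54 and 5.59 over ES on the MEF arrays and was not above background in iPS cells or ES cells (adjusted p = 5.2e-09); its other probes differed by -3.44 and -0.78. Ddx3y on the Y chromosome was measured in both and rose 3.02-fold from -1.87 and -1.87 on the MEF arrays and -0.32 and -0.23 on the iPS arrays. Of 9 tested Y genes 4 were higher and none lower: Ddx3y, Kdm5d, Rbmy and Uba1y, the last 2 dim in MEFs and at 3.44 and 3.68 over ES in iPS cells. Sex and cell type cannot be told apart here for these genes, and Rbmy and Uba1y were added after their values had been seen.

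By chromosome, the median difference was largest on Y, at 0.905 over 9 tested genes, of which 2 were measured in both cell types. On chromosome 17, 23.3% of 824 tested genes were higher and 12.3% lower, and the median difference was 0.220 (0.186 over the 701 measured in both). Its median ratio to ES was 0.161 and 0.180 on the iPS arrays and -0.059 and -0.042 on the MEF arrays. The array medians of the 2 groups were also apart on every other chromosome except chromosome 9, so separation is not particular to chromosome 17. On chromosome 11 both cell types stood below ES, at -0.255 and -0.263 on the MEF arrays and -0.191 and -0.190 on the iPS arrays. There the difference between iPS cells and MEFs was 0.067. On the other autosomes the median difference lay between -0.115 (chromosome 19) and 0.092 (chromosome 4). These medians are a description over genes, which are not replicates.

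**Figure D5:**
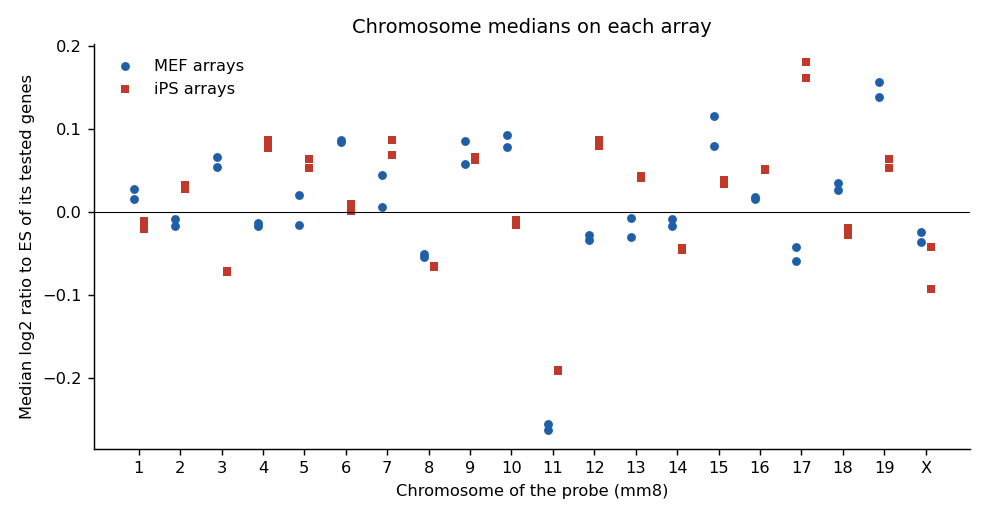
Points are the median log2 ratio to ES over the tested genes of each chromosome (x axis, mm8) on 1 array, with MEF arrays as circles and iPS arrays as squares. The Y chromosome, with 9 tested genes, is not drawn; of the others, chromosome 17 is highest on the iPS arrays at 0.161 and 0.180, and chromosome 11 lowest on all 4 arrays.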

How the data were processed

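Amplification and dye labelling started from 1 µg of RNA and used an Agilent kit, per the labels' protocols. Per the file headers, the authors read the arrays with Agilent Feature Extraction 10.5.1.1. The deposited files give each spot's mean intensity in both channels beside the local background's median intensity, not normalized, and a log10 ratio of red over green made by the same software.

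Intensities were background-corrected with normexp (offset 50, fitted over spots not marked as outliers) and loess-normalized (span 0.3) in limma 3.58.1 under R 4.3.3. Control and marked spots were left out and spots of a probe averaged. The difference was fitted over all 4 arrays by lmFit and eBayes, with 2 residual and 4.89 prior degrees of freedom, and errors are its standard errors (n = 2 arrays a group). Genes were named through RefSeq (GRCm38.p6) by accession (12047), by symbol or synonym (2218), or by the array (2586). Among 5481 genes with several tested probes, 1648 had calls that differed and 19 opposite ones. The 4 arrays shared 1 slide and 1 scan. The deposited series table held the same log10 ratios, spot for spot (column medians 0).

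The members and gene lists were chosen with earlier results of these data known. Named genes were the 15 largest rises and falls measured in both cell types, the 10 with the smallest p in each direction that were dim in the lower group, up to 3 a direction from each list, and 25 fixed genes; a few of these are not reported here. The fit was checked on simulated data. Alternatives covered the background fit, the marked spots, the normalization, the filter on dim probes, each array left out, a replicate block, a test against 2-fold and the mean over a gene's probes.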

Additional observations from a re-analysis of the deposited data

How the results depend on the processing

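The counts rested most on the background correction. With normexp fitted over all spots, 1230 probes were higher and 1422 lower, or 993 and 1141 genes. With marked spots kept in, they were 1434 and 1686 probes, or 1123 and 1323 genes. Under the first of these, without MEF replicate 1 (chosen after seeing the data), they were 3839 and 4433 probes, or 2940 and 3300 genes, so the loss of calls came from that array. Of 220 named genes, 132 lost their call with normexp over all spots. The scanner software's log ratio gave 6553 higher probes and 4630 higher genes, and moved the median of all genes to 0.151; 6014 of the 6213 genes called above had the same call there and 1 the opposite. Without 1 array each, genes ranged from 2910 to 2956 higher and from 3276 to 3318 lower, and probes from 3804 to 3858 higher and 4406 to 4446 lower. The replicate block gave 2929 higher and 3285 lower genes. Same-numbered arrays of the 2 groups deviated slightly against each other (correlation -0.114 over probes), and with the iPS numbers crossed the counts were 2929 and 3285. Testing against 2-fold itself left 2306 and 2701 genes. The red channels alone, without division by ES, gave 3148 higher and 3245 lower genes. There 6055 of the 6213 genes had the same call. Psmb9 and Crb3 changed sign with normexp over all spots (-0.49 and -0.91) and with marked spots kept (-0.49 and -0.91), unlike without MEF replicate 1 there (1.01 and 1.25). The median of the glycolysis list turned from -0.07 to 0.056 with normexp over all spots and to 0.052 under quantile normalization, that of the early lineage list from 0.26 to -0.072 and -0.019 with all and with marked spots, and that of all genes to -0.013 under median centring. With 2 arrays a group, the number of arrays and signal over background limit the precision.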

Other observations

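Genes not above background in 1 of the cell types had fewer CpGs in their promoters than genes measured in both, whether or not they were called. The ratio of observed to expected CpG in the RefSeq promoters was the CpG count times length over the product of C and G counts, averaged over a gene's promoters. It had a median of 0.396 over 301 genes higher in iPS cells and not above background in MEFs. It was 0.772 over 1704 genes higher and measured in both. For the genes lower in iPS cells it was 0.402 (301 not above background in iPS cells) and 0.714 (1960 measured in both), so both directions showed the same split. Genes that were not called showed it too: the median was 0.360 over 419 not above background in MEFs, 0.393 over 320 not above background in iPS cells, and 0.753 over 5969 measured in both. The split thus went with the reading above background, not with the call. A ratio under 0.4 was found in 50.5% and 49.5% of the called genes not above background in 1 cell type, and in 13.3% and 13.7% of those measured in both. Over all 11293 tested genes with a promoter the median was 0.719. Oocyte genes (median 0.28, 12 genes) and 2-cell stage genes (0.142, 7 genes) were at the low end, whereas meiosis and germ cell genes were not (0.706, 36 genes). Macrophage (0.247, 10 genes), fibroblast (0.279, 10 genes), muscle (0.314, 14 genes) and endothelial markers (0.335, 8 genes) were low too. These are descriptions over genes, which are not replicates.

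Called genes were also read in their order along the chromosomes. Tested genes were ordered by probe position on mm8, without those known only by the array's name (2586 of 16851). In that order 13 runs of 5 or more neighbours were all higher and 18 all lower. How many such runs the shares of called genes (17.4% higher and 19.5% lower) would give by themselves was not tested. A run of 7 genes on chromosome 17 (21522877 to 22160322) held only higher genes, nearly all zinc finger genes (Zfp820, Zfp942, Zfp994, Gm7072, Zfp944, Zfp758 and Zfp946), with differences of 1.32 to 3.66. Its members are alike in sequence, so the probes may share targets. Dppa4, Dppa2, Morc1, Dzip3 and Cip2a on chromosome 16 were all higher, by 1.27 to 6.22. Stambpl1, Acta2, Fas, Ch25h, Lipa, Ifit2 and Ifit3 on chromosome 19 were all lower, by -6.17 to -1.89. On the X chromosome the 5 Armcx genes Armcx4, Armcx1, Armcx6, Armcx3 and Armcx2 were all lower, by -4.86 to -1.02.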
